A study of Mus musculus with 18 samples.

Results

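Evx2 is a homeobox gene at the 5′ end of the mouse HoxD cluster. The contacts of the EcoRI fragment that carries it were read from 18 chromosome conformation capture carbon copy (5C) libraries. In 5C, fixed chromatin is cut with EcoRI and religated, and a junction is read when a forward primer on one fragment and a reverse primer on the other are joined across it, so that only fragments with primers of opposite direction can give a value. The Evx2 fragment lies at chr2:74483052-74498311 (mm9), is 15260 bp long and holds the whole gene, which runs on the minus strand from 74497918 to 74491049. The fragment to its left, chr2:74482148-74483051, holds no part of Evx2, has a primer of the opposite direction and was not counted as the Evx2 fragment. Members were all pairs of the Evx2 fragment with a partner whose midpoint lay at least 10 kb away. There were 65 such pairs among 4251 in the design used for embryonic stem cells (ESCs) and 101 among 10068 in the design used for limb cells, which reaches further to the 5′ side. Contact frequencies are given in reads per 1000, that is the reads of a pair divided by all reads of the sequence run and multiplied by 1000.

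The ESC libraries covered OS25 cells differentiated for 3 d, the last 2 d with retinoic acid (D3, 2 libraries), and undifferentiated OS25 cells (2), Eed-/- ESCs (2), Ring1B-/- ESCs carrying wild-type Ring1B again (2) or its I53A mutant (1), Ring1B-/- ESCs (3), and wild-type WTF18 ESCs (WT, 2). Which of the Eed-/- clones gave which library was not assigned. The paper states growth on fibroblast feeders for the wild-type, Ring1B-/- and Eed-/- ESCs, and cites earlier work for the culture of OS25 cells. Feeders were removed by reattachment before fixation, and any that remained would be in the libraries. The limb libraries came from mesenchymal lines of the posterior (P2, 2) and anterior (A2, 2) distal forelimb bud of E10.5 Immortomouse embryos, which carry a conditional viral oncogene that immortalizes their cells, 1 line each.

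Evx2 encodes an even-skipped homeodomain protein. It stands next to Hoxd13, is read from the opposite strand and shares enhancers with the 5′ Hoxd genes in the developing digits, among them the global control region (GCR) beyond Lnp and the Prox element between Lnp and Evx2. The Hoxd genes encode homeodomain transcription factors that are activated in the order of their positions, with Hoxd1 early and Hoxd13 late. In ESCs the cluster is silent and carries Polycomb complexes. EED is a core subunit of PRC2, which methylates histone H3, and RING1B is the catalytic subunit of PRC1, which ubiquitinates histone H2A. The I53A mutant of RING1B lacks that ubiquitination activity.

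The ligation junctions scored here form at the EcoRI ends of the fragments. The right-hand ends of the Evx2 fragment and of the 4 HoxD partners on which the results turn are shown from the mm9 genome, plus strand, with the EcoRI site in capitals. They lie at chr2:74498252-74498314 (Evx2), chr2:74511629-74511691 (Hoxd13), chr2:74524258-74524320 (Hoxd11), chr2:74552680-74552742 (Hoxd3, 5′ part) and chr2:74574547-74574609 (Hoxd3, 3′ part).
Evx2: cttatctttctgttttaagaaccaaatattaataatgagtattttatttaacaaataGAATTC
Hoxd13: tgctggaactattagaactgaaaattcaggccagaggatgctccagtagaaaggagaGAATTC
Hoxd11: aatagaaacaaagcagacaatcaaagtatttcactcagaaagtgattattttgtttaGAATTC
Hoxd3, 5′ part: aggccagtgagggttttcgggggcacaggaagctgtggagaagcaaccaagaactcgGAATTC
Hoxd3, 3′ part: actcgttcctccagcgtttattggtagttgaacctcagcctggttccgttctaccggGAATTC
The start of Evx2 lies 393 bases inside the right-hand end of its fragment, so the end shown is the promoter side of the gene.

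Total reads ran from 216419 in replicate 1 of Ring1B-/- cells with wild-type Ring1B to 2096682 in replicate 2 of P2. At these depths 3 reads, the limit that a count of 0 allows, correspond to 0.0139 and 0.00143 reads per 1000, a limit on counting error alone, as the reads were amplified by PCR. The Evx2 pairs held 10119 to 58078 reads per ESC library and 4599 to 24638 reads per limb library. Replicates of 1 group differed by far more than sampling noise (chi-square per degree of freedom 15.2 to 257 over the Evx2 pairs). Their Evx2 profiles correlated with a Spearman coefficient of 0.34 to 0.59 over partners, which share the anchor and are not independent. The study calls the repeat libraries biological replicates, without saying whether each came from a separate culture, so p-values measure the spread between these libraries.

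In all 14 ESC libraries the contacts of Evx2 were concentrated on the HoxD side. The 10 partners inside the cluster (chr2:74505530-74598978) averaged 0.932 to 4.84 reads per 1000 per library, and the 55 partners outside it averaged 0.139 to 0.355. HoxD partners therefore took 48.5% to 75.8% of the Evx2 signal while making up 10 of 65 partners. The 4 Prox-side partners, at about the same distance on the other side of Evx2 as the 5′ Hoxd partners, were lower in every ESC library. Single partners overlapped more than these means: 2 and 3 of the 10 HoxD partners lay above every other partner in the Eed-/- libraries, and 3 to 9 in the other 12. The ratio of the 5′ Hoxd mean to the Prox mean was 1.76 in Eed-/- replicate 1 and 5.00 to 23.7 in the other 13.

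**Figure D1:**
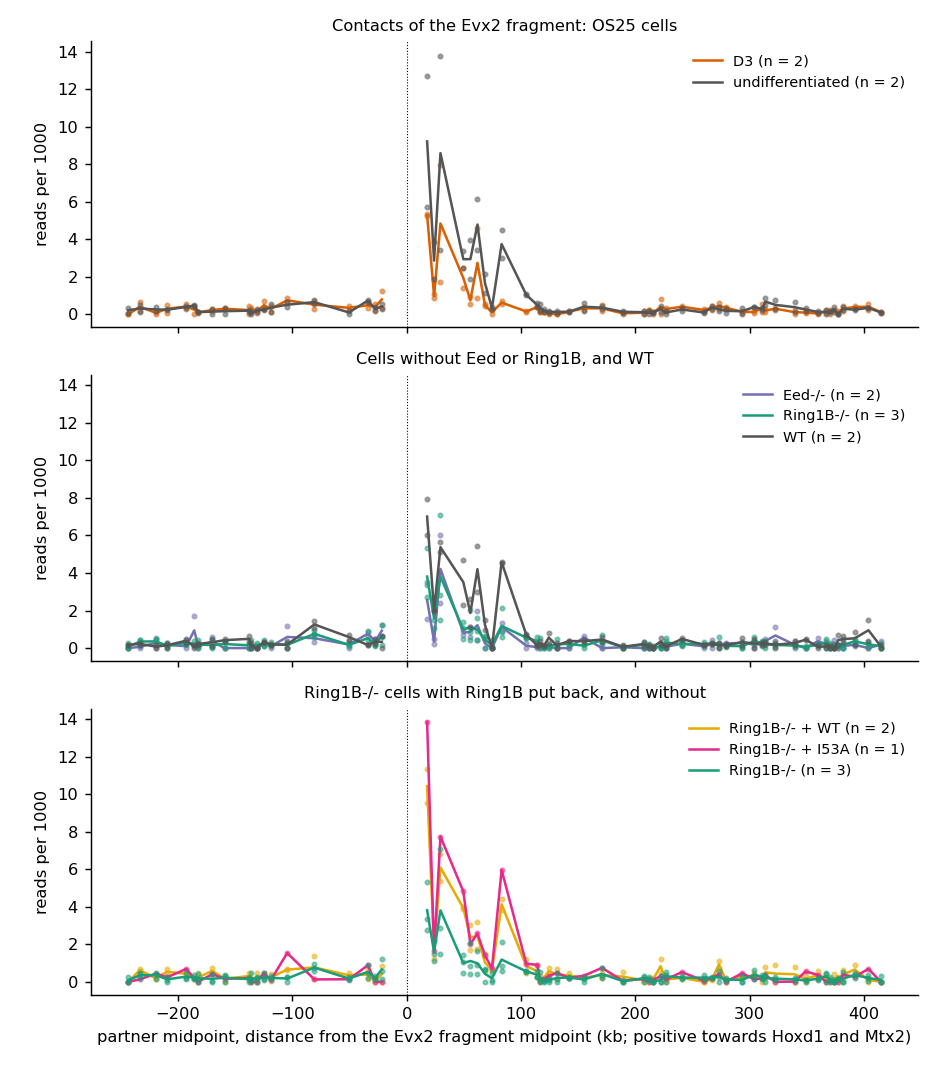
Contact frequency of the Evx2 fragment (reads per 1000) with each partner, against the distance of the partner midpoint from the Evx2 midpoint in kb, in ESC libraries. Points are libraries and lines join group means; the 10 HoxD partners lie between 17.9 and 104.7 kb on the Hoxd side and reach 13.9, and no partner outside HoxD exceeds 1.70 in any library.

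The nearest HoxD partner, the fragment of Hoxd13 (chr2:74505530-74511688, 17.9 kb away), whose gene patterns the digits and distal limb, had the highest mean over the 14 libraries (6.74 reads per 1000). It was the highest partner in 7 of them, and Hoxd11 was in 6. Its contact with Evx2 was 5.36 and 5.23 reads per 1000 in D3 cells, against 5.71 and 12.7 in undifferentiated cells. It was 1.57 and 3.55 in Eed-/- cells and 2.75, 3.37 and 5.32 in Ring1B-/- cells, against 7.97 and 6.04 in WT cells. In Ring1B-/- cells with Ring1B put back it was 11.3 and 9.50 with the wild-type protein and 13.9 with the mutant. The Eed-/- and Ring1B-/- libraries all lay below both WT libraries and below all libraries with Ring1B put back.

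The fragment that carries the start of Hoxd11 (chr2:74516252-74524317, 29.6 kb), a limb and kidney patterning gene, had a mean of 5.53. It gave 1.75 and 7.94 reads per 1000 in D3 cells and 3.43 and 13.8 in undifferentiated cells. The Eed-/- values were 2.38 and 6.05, the Ring1B-/- values 2.85, 1.47 and 7.09, and the WT values 5.09 and 5.66. With Ring1B put back the values were 5.35 and 6.83 (wild type) and 7.74 (mutant). Groups overlapped at Hoxd11 in every ESC comparison except the mutant against Ring1B-/-. The Hoxd12 fragment between them (chr2:74513972-74515438) is short, at 1467 bp, and gave 0.233 to 3.86 over the 14 libraries.

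In the middle of the cluster, the fragment between Hoxd9 and Hoxd8 (chr2:74538485-74542114, 49.6 kb) gave 2.46 and 1.41 reads per 1000 in D3 cells, against 3.39 and 2.49 in undifferentiated cells. It gave 0.933 and 0.694 in Eed-/- cells and 1.07, 0.494 and 1.42 in Ring1B-/- cells, against 2.31 and 4.71 in WT cells. The fragment over the 3′ part of Hoxd8 (chr2:74544639-74548285) ranged from 0.440 to 3.99 over all libraries.

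In the 3′ part of the cluster, Evx2 had high contact with the fragment within Hoxd3 at chr2:74572993-74574606, 83.1 kb away. Hoxd3 patterns the upper neck vertebrae. Its contact with Evx2 was 0.727 and 0.528 reads per 1000 in D3 cells, against 3.00 and 4.49 in undifferentiated cells. It was 0.924 and 1.33 in Eed-/- cells and 0.860, 0.580 and 2.11 in Ring1B-/- cells, against 4.55 and 4.60 in WT cells. With Ring1B put back it was 4.42 and 3.84 (wild type) and 5.96 (mutant). Groups did not overlap here in the comparisons with undifferentiated, WT or Ring1B-/- cells, except that Eed-/- and Ring1B-/- cells overlapped. The 170 bp fragment near the start of Hoxd3 (chr2:74552570-74552739) gave 0.436 to 6.16 over the 14 libraries, and the fragment with the start of Hoxd4 (chr2:74554816-74563667), a hindbrain gene, gave 0 to 2.18. The last HoxD partner, before Hoxd1 at chr2:74591760-74598978, gave 0 to 1.20. The fragment with the body of Hoxd4 (chr2:74564941-74565757) was at or under 0.716 in all libraries and held no read in both WT libraries. The starts of Hoxd12, Hoxd8, Hoxd3 and Hoxd1 lie on fragments with primers of the same direction as Evx2, which cannot be paired with it.

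Most HoxD partners lay high among pairs at like distance, which were not matched for fragment length or primer. Each HoxD partner was set against all pairs of the design without Evx2 whose distance was within 20% of its own. The Hoxd13, Hoxd11 and Hoxd8 partners and those that start at 74538485, 74552570 and 74572993 lay above the 90th percentile of such pairs in 14 of 14 libraries, and the Hoxd12 partner in 12. The partner at the start of Hoxd4 did so in 12, that before Hoxd1 in 10 and that over the body of Hoxd4 in 5 (median percentile 62.5). Over the HoxD partners the observed mean was 4.88 to 19.2 times the mean of distance-matched pairs per library. Over the 5′ flank it was 1.20 to 2.44 times and over the 3′ flank 1.34 to 2.84 times. Its mean over partners at least 120 kb away ranked 5th to 18th of 133 fragments. The Evx2 fragment is the 2nd longest of the 133, and over the 55 partners outside HoxD contact was higher for longer partners (Spearman 0.60, n = 55 partners, which share the anchor and the libraries). Over the 10 HoxD partners that coefficient was 0.09, and 0.33 with CpG density. The Evx2 fragment holds 29.3 CpG per kb, against a median of 9.33 over all fragments.

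Among neighbouring fragments, contact with HoxD was low to the left of Evx2 and high at Evx2 itself and at some fragments to its right. The mean contact with HoxD fragments in WT cells was 3.05 reads per 1000 for Evx2 and 0.359 for the 9204 bp fragment 13.1 kb to its left, which has the same primer direction. The 904 bp fragment just left of Evx2 had 0.0989. To the right, the fragment 11.5 kb away (chr2:74498789-74505529, between Evx2 and Hoxd13) had 1.63. This fragment was also the one whose profile over partners was most like that of Evx2, among 65 fragments of the same direction (Spearman 0.70 over 64 shared partners, mean of all ESC libraries). The next were the fragments at chr2:74472944-74482147 (0.60) and chr2:74511689-74513956 (0.56), followed by 1 in the Prox interval and 1 in Lnp (0.54 each). In Eed-/- cells the fragment between Evx2 and Hoxd13 had a mean of 0.542 and Evx2 1.15, against 1.63 and 3.05 in WT cells. Further right, the Hoxd11 fragment had 3.55 in WT and 0.883 in Eed-/- cells, and the Hoxd13 fragment 1.54 and 0.439. The Hoxd9 fragment at chr2:74537329-74538484 had 1.03 and 0.276. The fragments of Hoxd12 and the 477 bp fragment just right of Evx2 had 0.213 to 0.679 in WT cells. The lower value in Eed-/- cells was therefore not particular to Evx2. Of these neighbours only the Hoxd11 fragment had a higher level in WT cells. Its primer has the opposite direction, so its mean is over a different set of HoxD partners. Among the neighbours with the primer direction of Evx2 the next highest had 1.63.

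**Figure D2:**
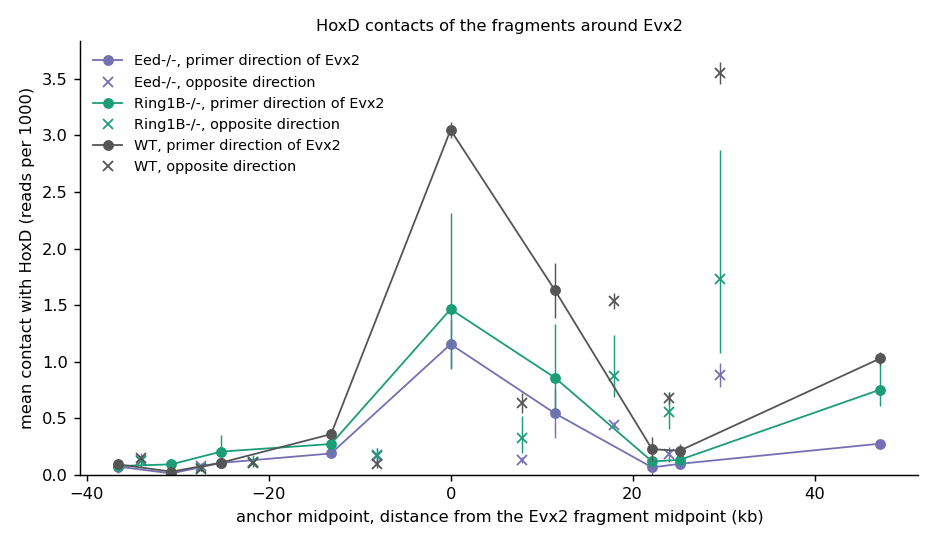
Mean contact with HoxD fragments (reads per 1000) of the fragments around Evx2, against their distance from the Evx2 midpoint in kb, in Eed-/-, Ring1B-/- and WT cells. Circles joined by lines are fragments with the primer direction of Evx2, crosses those of the opposite direction, and bars span the libraries. The value in WT cells is 0.359 at 13.1 kb to the left, 3.05 at Evx2 and 3.55 at the Hoxd11 fragment.

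Outside HoxD the highest partner, with a mean of 0.703 reads per 1000 over the 14 libraries, was the 10046 bp fragment at the start side of Lnp (chr2:74404957-74415002), with 0.746 and 0.304 in Eed-/- cells and 0.743, 0.942 and 0.584 in Ring1B-/- cells, against 1.44 and 1.08 in WT cells. It gave 0.308 and 0.730 in D3 cells, against 0.549 and 0.754 in undifferentiated cells. Lnp encodes an endoplasmic reticulum protein and lies among digit enhancers. The next were the fragments at chr2:74467293-74470655 and chr2:74454348-74458973 on the Prox side and a second Lnp fragment (chr2:74383684-74388704), with means of 0.556, 0.537 and 0.531. The group means of the GCR window (9 partners) were 0.221 to 0.325 in all ESC groups. Single libraries spread more widely, from 0.0777 in Ring1B-/- replicate 2 to 0.353 in replicate 2 with wild-type Ring1B. The 2 pairs closer than 10 kb were not members, and the one to the right gave 2.97 to 12.4 reads per 1000 over the libraries.

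**Figure D3:**
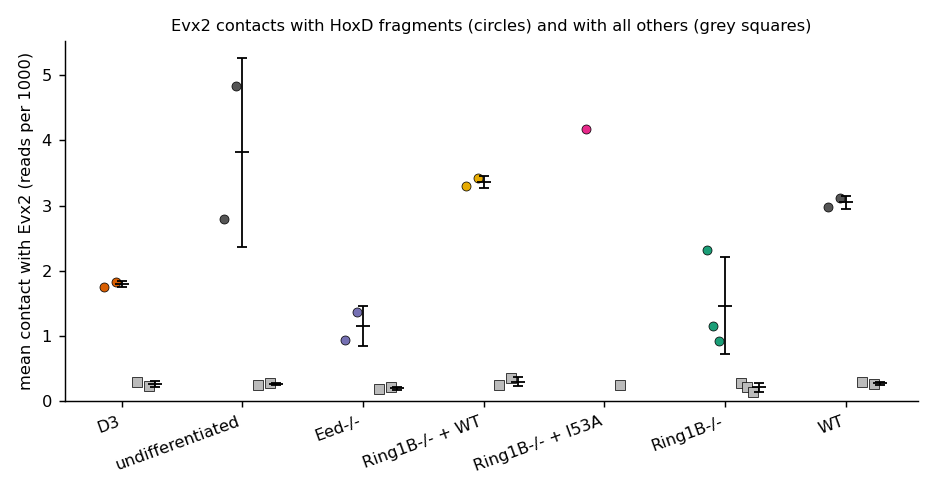
Mean contact of Evx2 with HoxD partners (circles) and with all other partners (grey squares), in reads per 1000, for each ESC library, with the group mean and SD beside them where a group has 2 or more libraries. HoxD means are 0.932 to 2.31 in D3, Eed-/- and Ring1B-/- libraries and 2.79 to 4.84 in the other 7, and the means outside HoxD stay at 0.139 to 0.355.

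Differentiation for 3 d was compared with the undifferentiated state of the same line. Mean contact of Evx2 with HoxD was 1.76 and 1.83 reads per 1000 in D3 cells, against 2.79 and 4.84 in undifferentiated cells, or 1.79 ± 0.05 and 3.81 ± 1.45 (SD, n = 2 each). The groups did not overlap. The difference of log2(mean + 0.02), as fitted by limma with all 14 ESC libraries, was -1.03 (SE 0.45), and it did not pass after Benjamini-Hochberg adjustment over the 386 anchor-window means of the design (adjusted p = 0.433). It was the 13th lowest of these. All 10 HoxD partners had a difference below 0 (median -1.56, against 0.09 over all 3484 pairs tested), and 8 were lower in both D3 libraries than in both undifferentiated ones, against 10.9% of all pairs tested. Over the 65 partners 17 were lower in this way and 9 higher, the background being 16.7% for higher. The 3′ Hoxd partners averaged 0.824 ± 0.53, against 2.32 ± 0.0079 in undifferentiated cells (log2 difference -1.63, adjusted p = 0.828 over 993 finer windows), and the 5′ Hoxd partners 2.76 ± 0.62, against 5.31 ± 2.9 (-0.84). Without undifferentiated replicate 2 the HoxD difference was -0.63 and the 5′ Hoxd difference -0.26, and without undifferentiated replicate 1 they were -1.42 and -1.43. The 3′ Hoxd difference was -0.94 without D3 replicate 2. The 5′ flank differed by 0.15 and the 3′ flank by -0.16, with overlapping groups. Limma called 0 single Evx2 pairs of 65, with 1 at an unadjusted p under 0.05.

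Loss of PRC2 was examined in Eed-/- cells. The only WT libraries are titled as the wild type for Ring1B, and the paper cites another source for the Eed-/- clones. A difference between lines therefore cannot be told apart from loss of Eed here. Mean contact with HoxD was 0.940 and 1.37 reads per 1000, against 2.98 and 3.12 in WT cells, or 1.15 ± 0.30 and 3.05 ± 0.10 (SD, n = 2 each). The groups did not overlap and the log2 difference was -1.41 (SE 0.45, 95% confidence interval -2.34 to -0.48). It missed the threshold with limma (adjusted p = 0.083), while 3.89% of the 386 anchor-window means passed as lower. With a pseudocount of 0.1 in place of 0.02 it passed (-1.35, adjusted p = 0.0315). Of the HoxD partners 8 of 10 were lower without overlap, against 29 of all 65 Evx2 partners and 12.3% of all pairs tested, and 7 Evx2 partners were higher (background 10.4%). The median difference of the Evx2 partners was -1.46, that of all pairs 0. Limma called 0 of 65 single pairs, with 14 at an unadjusted p under 0.05. In simulated data of this comparison the test called 0% of single pairs with log2 changes of up to 4, and 35.0% of window means with a change of 1 and 100% with a change of 2.

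The lower values in Eed-/- cells reached past the cluster. The 3′ Hoxd mean was 0.545 ± 0.19, against 2.15 ± 0.27 in WT cells (-1.98, adjusted p = 0.122), and passed with a pseudocount of 0.1 (-1.83, adjusted p = 0.0199). The 5′ Hoxd mean was 1.76 ± 0.8, against 3.95 ± 0.06 (-1.23, adjusted p = 0.404, and -0.76 without Eed-/- replicate 1). Contact with the 6 partners at Mtx2, a gene for a mitochondrial outer membrane protein, was 0 and 0.0371 in Eed-/- cells, against 0.237 and 0.175 in WT cells (-2.73, adjusted p = 0.120). No read was seen at 28 and 24 of 65 Evx2 partners in the Eed-/- libraries, against 10 and 13 in WT, although the share of empty pairs over the whole design was 62.7% and 60.3% in Eed-/- cells and 59.2% and 59.8% in WT cells. At 15 of 65 partners both Eed-/- libraries held no read, while both WT libraries were empty at 2 and the single library with the I53A mutant at 11. The share of all pairs of the design that were empty in both libraries was not counted. Of the 15, 1 was a HoxD partner. One of them, chr2:74632269-74632968 between Hoxd1 and Mtx2, chosen after its values were seen, gave 0.364 and 0.387 in WT cells and 0.217, 0.268 and 0.190 in Ring1B-/- cells. With 3 reads per library as the limit for counting error alone, it was at least 124-fold lower in Eed-/- than in WT cells. That limit does not cover the spread between replicates: the partner at chr2:74467293-74470655 gave 0 and 0.667 in the WT libraries. The pair at chr2:74632269-74632968 passed with limma in a fit without the filter on low means (adjusted p = 0.00734, with 16 of 4251 pairs called). Its Eed-/- values there, both 0, had no spread. On the Prox side the mean was higher in Eed-/- cells, at 0.682 and 0.447, against 0.269 and 0.442 in WT cells (0.65, adjusted p = 0.707), and the 5′ flank as a whole differed by -0.08.

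Loss of PRC1 was examined in Ring1B-/- cells. Mean contact with HoxD was 1.15, 0.932 and 2.31 reads per 1000 in replicates 1, 2 and 3, against 2.98 and 3.12 in WT cells, or 1.46 ± 0.74 (n = 3) and 3.05 ± 0.10 (SD, n = 2). All 3 lay below both WT values, with replicate 3 nearest to them. The log2 difference was -1.16 (SE 0.41), the 4th lowest of 386, and did not pass with limma (adjusted p = 0.362). The HoxD partners were lower without overlap in 6 of 10, against 17 of all 65 partners and 6.54% of pairs tested. Only 3 Evx2 partners were higher in this way (background 10.7%). The median difference of the Evx2 partners was -0.58, against 0.47 over all pairs. Over the whole design 24.2%, 49.6% and 45.7% of pairs were empty in Ring1B-/- replicates 1, 2 and 3. In WT cells 59.2% and 59.8% were, and the part of empty pairs in these medians was not tested. The 3′ Hoxd mean was 0.667 ± 0.3, against 2.15 ± 0.27 in WT cells (-1.73, adjusted p = 0.356), and the 5′ Hoxd mean 2.26 ± 1.2, against 3.95 ± 0.06 (-0.92). The 3′ flank was lower in all Ring1B-/- libraries (-0.50, adjusted p = 0.638), and the 5′ flank overlapped (-0.23). Limma called 0 of 65 single pairs, with 3 at an unadjusted p under 0.05.

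The Eed-/- and Ring1B-/- comparisons share the WT libraries. The Eed-/- and Ring1B-/- cells are also different lines, which cannot be told apart from the genotypes. Set against each other, Eed-/- cells differed from Ring1B-/- cells in contact with HoxD by -0.25 (95% confidence interval -1.10 to 0.60, adjusted p = 0.852), and the groups overlapped. Contact with the Mtx2 partners averaged 0.0186 ± 0.026 in Eed-/- cells and 0.15 ± 0.1 in Ring1B-/- cells (-2.17, adjusted p = 0.170), without overlap. Of the 65 partners, 15 were lower without overlap in Eed-/- cells, against 11.9% of all pairs, and 3 were higher (background 5.91%). Limma called 0 of 65 single pairs, with 10 at an unadjusted p under 0.05. In the fit without the filter on low means 2 passed, the partner at chr2:74632269-74632968 described above (adjusted p = 0.0106) and that at chr2:74659682-74663675 in the Mtx2 window (adjusted p = 0.0434), of 22 pairs called in 4251. The partner in the Mtx2 window held no read in both Eed-/- libraries and gave 0.334, 0.194 and 0.722 in Ring1B-/- cells. None of the Evx2 windows was called, against 0.259% of the 386 anchor-window means called lower.

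**Figure D4:**
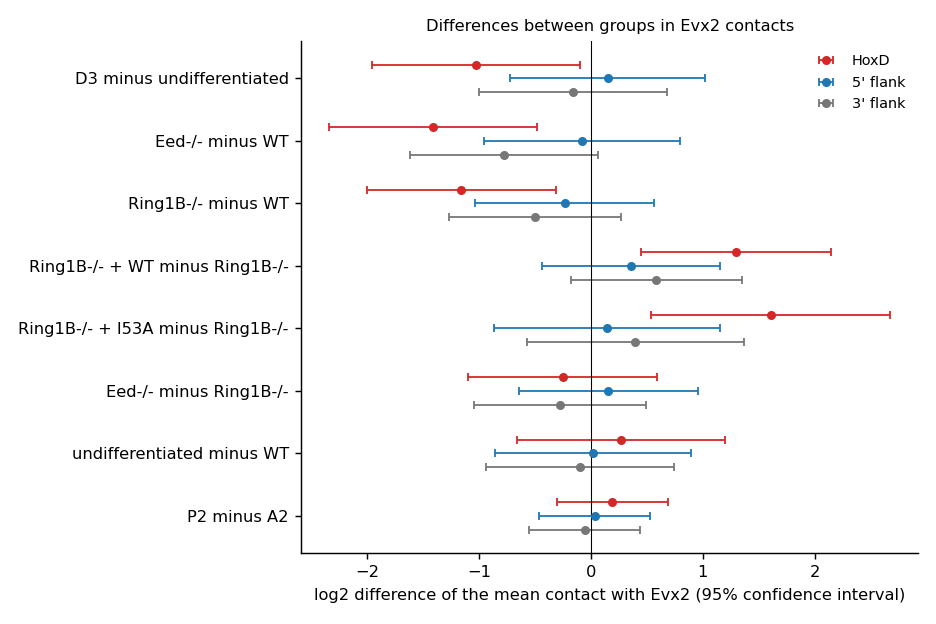
Log2 difference of the mean contact of Evx2 with HoxD (red), the 5′ flank (blue) and the 3′ flank (grey) in each comparison, with 95% confidence intervals from limma. The HoxD differences are -1.41 to -1.03 in D3, Eed-/- and Ring1B-/- cells and 1.30 and 1.61 where Ring1B was put back, and none passes after adjustment.

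Ring1B-/- cells with wild-type Ring1B put back had HoxD contacts of 3.30 and 3.42 reads per 1000, or 3.36 ± 0.09 (SD, n = 2), against 1.46 ± 0.74 in Ring1B-/- cells (n = 3). The log2 difference was 1.30 (SE 0.41), the 6th highest of 386, with an adjusted p of 0.140 by limma. Among the settings tried it passed only without Ring1B-/- replicate 3 (1.68, adjusted p = 0.0287). The HoxD partners were all above 0 in difference, 5 of 10 were higher without overlap, and 13 of the 65 Evx2 partners were, against 8.18% of all pairs, while 3 were lower (background 9.50%). The 3′ Hoxd window differed by 1.50 (1.81 ± 0.1 against 0.667 ± 0.3) and the 5′ Hoxd window by 1.23 (4.91 ± 0.27 against 2.26 ± 1.2). The single library with the I53A mutant had a HoxD mean of 4.17, above both with the wild-type protein, and the difference from Ring1B-/- cells was 1.61 (SE 0.52, adjusted p = 0.439), the 4th highest of 386. In this library 8 of 10 HoxD partners and 22 of 65 Evx2 partners lay above all 3 Ring1B-/- libraries, against 16.6% of all pairs, and 13 Evx2 partners lay below them, 6 of these in the 5′ flank, against 17.2% of all pairs. Its spread is assumed to be that of the other groups. The cells with wild-type Ring1B and with the mutant were not compared, since the mutant has 1 library. Both comparisons share the Ring1B-/- libraries. Limma called 0 of 65 single pairs in either, with 3 and 2 at an unadjusted p under 0.05.

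The preference of Evx2 for HoxD, the log2 ratio of its mean over HoxD partners to its mean over other partners, does not depend on the scaling of libraries apart from the pseudocount. It ranked 2nd to 6th among the 133 fragments in every ESC library. Its difference was -1.004 in D3 cells against undifferentiated cells, -0.96 in Eed-/- cells and -0.77 in Ring1B-/- cells against WT cells, and 0.81 and 1.32 for Ring1B put back as wild type and as mutant. The median difference over all 133 fragments was -0.04, -0.48, -0.21, 0.22 and 0.09 in the same order. The groups did not overlap in these 5 comparisons, and limma's adjusted p ran from 0.209 to 0.525. The preference was called lower in 9.02% and higher in 0.752% of the 133 fragments in Eed-/- cells. How many of the 133 fragments had a preference without overlap between groups was not counted.

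In the order of group means the contact of Evx2 with HoxD was lowest in Eed-/- (1.15), Ring1B-/- (1.46) and D3 cells (1.79), then WT (3.05), Ring1B-/- with wild-type Ring1B (3.36), undifferentiated OS25 (3.81) and Ring1B-/- with the mutant (4.17). Within the first 3 groups Ring1B-/- overlapped both of its neighbours, while D3 lay above both Eed-/- libraries. WT lay below both libraries with wild-type Ring1B put back, and undifferentiated OS25 overlapped WT and both groups with Ring1B put back. Undifferentiated cells had 2.79 and 4.84, against 2.98 and 3.12 in WT cells, a difference of 0.27 (95% confidence interval -0.66 to 1.20, adjusted p = 0.993), and this interval does not show that the lines are alike. Of the 65 partners, 9 were higher and 14 lower without overlap, against 14.6% and 9.07% of all pairs.

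In the limb lines, measured with the larger design and set apart here, the Evx2 profile was flatter. HoxD partners were 1.55 to 2.52 times the mean of distance-matched pairs, against 4.88 to 19.2 times in ESCs. Reads were spread over more pairs, and HoxD held 9 of 101 partners, against 10 of 65. Levels and shares therefore cannot be set directly against those of ESCs. The 9 HoxD partners averaged 0.265 and 0.362 reads per 1000 in P2 cells, against 0.278 and 0.261 in A2 cells, and the 92 others 0.0785 to 0.0923. HoxD took 24.8% and 27.7% of the Evx2 signal in P2 cells, against 23.8% and 23.4% in A2 cells. The highest partner was Hoxd13, with 0.808 and 1.47 in P2 cells, against 0.761 and 0.929 in A2 cells. Hoxd11 gave 0.359 and 0.368 in P2 cells, against 0.392 and 0.433 in A2 cells, and Hoxd12 gave 0.370 and 0.425 in P2 cells, against 0.337 and 0.325 in A2 cells. From Hoxd13 on, the values were lower at larger distance along the cluster (Spearman -0.97 over 9 partners), and the Hoxd3 fragment at chr2:74572993-74574606 gave 0.0355 and 0.0959 in P2 cells, against 0.0943 and 0.0445 in A2 cells. Against pairs of like distance, Hoxd13 and Hoxd11 were above the 90th percentile in 4 of 4 libraries, the 3 partners at 74513972, 74538485 and 74544639 were above it in 1, 1 and 2 libraries, and the 4 from 74552570 on in none.

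**Figure D5:**
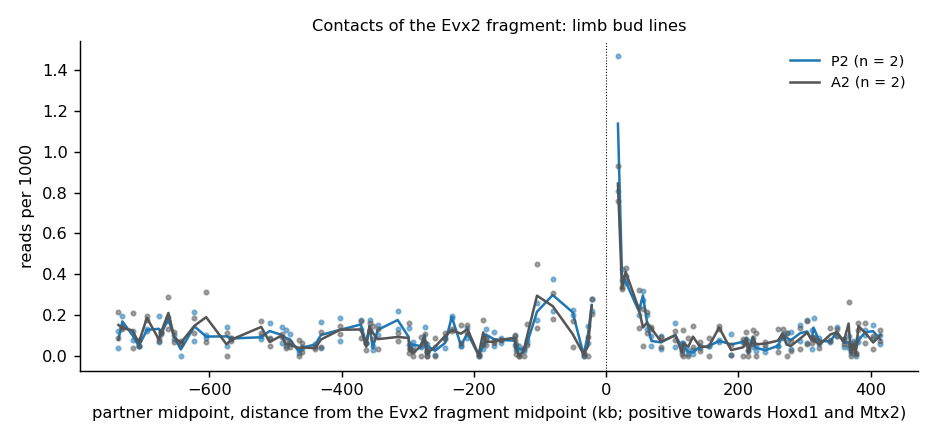
Contact frequency of the Evx2 fragment (reads per 1000) with each partner, against the distance of the partner midpoint from the Evx2 midpoint in kb, in the P2 and A2 limb lines. Points are libraries and lines join group means; the peak is the Hoxd13 fragment at 17.9 kb, and the 2 lines overlap along most of the region.

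The difference between P2 and A2 cells in contact of Evx2 with HoxD was 0.19 (95% confidence interval -0.31 to 0.69, adjusted p = 0.999 by limma with 4 libraries). This fit pooled the spread over all 571 anchor-window means (1142 degrees of freedom). These means share pairs and libraries, so the interval may be too narrow. The P2 libraries overlapped the A2 libraries. The largest window difference was on the Prox side, 0.143 ± 0.027 in P2 cells and 0.101 ± 0.055 in A2 cells (log2 difference 0.50, adjusted p = 0.999). No Evx2 window was called, against 0.175% of the 571 anchor-window means called higher. Among the 96 Evx2 pairs that passed the filter 11 were higher and 11 lower in P2 without overlap, against 15.2% and 15.7% of all pairs tested. Limma called 0 of them, with 0 at an unadjusted p under 0.05. Of the 9 HoxD partners, Hoxd12 and Hoxd8 were higher in this way and the Hoxd11 partner and that at the start of Hoxd4 lower. The 38 partners in the far 5′ desert averaged 0.0912 ± 0.02 in P2 cells and 0.0889 ± 0.01 in A2 cells (0.02).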

How the data were processed

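5C matrices of 18 libraries were analysed. The deposited matrices hold a signal per fragment pair, for which the authors ran the Ion Torrent reads through a Galaxy 5C pipeline and divided the reads of each contact by all reads of the run, times 1000. No aligner is named in the sources used here. The build is mm9, and a genome of that build (NCBIM37) gave the sequences and gene positions. Total reads per library (216419 to 2096682) were taken from the step between values. Signals were averaged per window, log2 values were taken after adding 0.02, and features with a mean above 0.02 were fitted with limma (version 3.58.1, R 4.3.3) in two-sided tests with Benjamini-Hochberg adjustment at 0.05 within each contrast over the whole table. The 14 ESC and 4 limb libraries were fitted apart. No exact two-sided rank test of 2 against 2 libraries can go below p = 0.333 (0.2 for 3 against 2). For 3 against 1 even a one-sided exact test cannot go below 0.25. Named partners overlap a gene, lie in a window of the study or are among the 5 highest. Windows were assigned by midpoint. The members and lists were chosen with earlier results of these data known. Descriptive values were computed with Python 3.11.15, pandas 2.3.3 and numpy 2.4.6, and plots with matplotlib 3.10.9. The fits were tested on simulated data. Alternatives covered the pseudocount, filter, scaling, minimum distance, primer efficiency, median, libraries in the fit and leaving out each library. No expression was measured here, so cell identity was not checked.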

Additional observations from a re-analysis of the deposited data

How the results depend on the processing

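Over the alternatives tried, 836 of 860 values kept their direction and their side of the threshold, and 213 of 224 of the HoxD means and preferences. No main value had passed, so keeping the side of the threshold meant staying uncalled. The 860 include counts of single pairs called, which have no direction. Some could hardly change: rescaling libraries leaves the preference as it was, apart from the pseudocount and the filter. The primer efficiency factor likewise cancels in the difference of a single pair. With a pseudocount of 0.1, 4 results passed that had not: Eed-/- minus WT in HoxD contact (-1.35, adjusted p = 0.0315), in preference (-1.01, adjusted p = 0.0321) and in the 3′ Hoxd window (-1.83, adjusted p = 0.0199), and the preference of the mutant minus Ring1B-/- (1.34, adjusted p = 0.0432). Over the settings other than leaving out libraries, the HoxD difference ran from -1.78 to -0.80 for D3 minus undifferentiated, -2.07 to -0.97 for Eed-/- minus WT and -1.55 to -0.91 for Ring1B-/- minus WT, with adjusted p of 0.193 to 0.695, 0.0315 to 0.159 and 0.202 to 0.497. With the median over pairs the preference turned to 0.10 for Eed-/- minus Ring1B-/- and -0.14 for undifferentiated minus WT. Without the filter on low means 1 single pair passed for Eed-/- minus WT and 2 for Eed-/- minus Ring1B-/-. Leaving out 1 library at a time, the HoxD difference of D3 minus undifferentiated ran from -1.42 to -0.63, and that of Ring1B-/- with wild-type Ring1B minus Ring1B-/- ran from 1.03 to 1.68 and passed without Ring1B-/- replicate 3. It ran from -0.52 to 0.13 for Eed-/- minus Ring1B-/-, -0.13 to 0.66 for undifferentiated minus WT and -0.022 to 0.40 for P2 minus A2. The preference of undifferentiated minus WT ran from -0.0088 to 0.64. The 5′ Hoxd window ran from -0.28 to 0.89 for undifferentiated minus WT and -0.78 to 0.17 for Eed-/- minus Ring1B-/-. The 3′ Hoxd window ran from -0.012 to 0.24 for undifferentiated minus WT, -0.60 to 0.12 for Eed-/- minus Ring1B-/- and -0.42 to 0.049 for P2 minus A2. The Hoxd11 pair ran from -1.96 to 0.21 for D3 minus undifferentiated and -1.17 to 0.17 for Eed-/- minus WT. The causes were not tested. A minimum distance of 20 kb leaves no value for the Hoxd13 pair. Planned fits by edgeR and DESeq2 on recovered reads were not run: values return to whole reads, but each matrix column holds too few low values to check this column by column. No paired analysis was possible because the labels number replicates in Ring1B-/- cells only, so that no groups compared share such numbers.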
